A study of Mus musculus with 3 samples.

Results

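Glycolysis and the central carbon pathways were read through 34 genes chosen by symbol, of the 27998 genes in each count matrix: 2 glucose transporters, 8 genes of upper glycolysis, 6 of lower glycolysis, 4 of lactate exchange, 4 of the pentose phosphate pathway, 2 at the entry of pyruvate into mitochondria and 8 of the tricarboxylic acid (TCA) cycle and its malate and isocitrate side reactions. All 34 were found in the gene list and each had at least 1 UMI (unique transcript count) in each library. The cells were 3 populations sorted from bone marrow of C57BL/6 mice, and each was profiled as 1 single-cell library of 10x Chromium v2 chemistry. ALP, all-lymphoid progenitors, came from Tcf7EGFP/+ mice and were negative for lineage markers and a4b7 integrin, positive for Kit, 2B4 and IL-7Ra, and high for Flt3. ILCpro_WT, early progenitors of innate lymphoid cells (ILCs) that the source label also calls EILP_WT, came from the same genotype, with a Tcf7 reporter on 1 allele, and were lineage-negative, Kit+, 2B4+, a4b7+ and Tcf7+. ILCpro_KO (EILP_KO) came from Tcf7EGFPnull/- mice by the gate of ILCpro_WT. Both ALP and ILCpro_WT therefore carry the reporter allele, and "WT" denotes a heterozygote. The number of mice behind a library and their age were not given in the sources used here.

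Glycolysis splits glucose into pyruvate in the cytosol and yields ATP without oxygen. Its upper steps spend ATP to prime and split the sugar, and its lower steps from triose phosphate to pyruvate return it. Pyruvate is either reduced to lactate by lactate dehydrogenase or enters mitochondria, where pyruvate dehydrogenase feeds the TCA cycle. The pentose phosphate pathway branches off at the first phosphorylated sugar and supplies NADPH and ribose for nucleotides. Dividing lymphoid progenitors are known to use glycolytic intermediates for biosynthesis, and Myc and hypoxia-inducible factors are known regulators of these genes.

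For each of 4 genes on which the results turn, the 250 bases upstream of 1 RefSeq transcript start are shown first. The genes are both lactate dehydrogenase subunits, which moved apart, Pgam1 of lower glycolysis, higher in ILCpro_KO, and the aldolase Aldoa, lower in cycling cells. The windows are RefSeq sequences of GRCm38.p6, printed 5′ to 3′ on the strand of the gene. Those of Ldha and Aldoa lie inside the span of the gene in the GENCODE annotation given below. Capitals mark ACGTG or its reverse complement CACGT, a form of the core of the hypoxia-response element. The form GCGTG was neither marked nor counted, and it occurs in lower case in the windows of Ldhb and Pgam1. A window without capitals can therefore still hold such a core. CACGTG, the E-box of Myc and related factors, holds both ACGTG and CACGT, overlapping.
Ldha chr7:46845554-46845803 +: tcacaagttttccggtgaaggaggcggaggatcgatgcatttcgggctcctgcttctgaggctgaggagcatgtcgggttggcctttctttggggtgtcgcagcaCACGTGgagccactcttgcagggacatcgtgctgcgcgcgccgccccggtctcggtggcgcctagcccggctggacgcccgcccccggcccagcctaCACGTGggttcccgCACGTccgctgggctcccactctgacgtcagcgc
Ldhb chr6:142507958-142508207 -: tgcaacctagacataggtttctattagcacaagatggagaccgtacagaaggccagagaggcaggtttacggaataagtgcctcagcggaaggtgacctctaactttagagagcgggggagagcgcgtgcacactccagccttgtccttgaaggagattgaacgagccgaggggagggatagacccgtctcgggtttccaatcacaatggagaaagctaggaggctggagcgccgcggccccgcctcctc
Pgam1 chr19:41911621-41911870 +: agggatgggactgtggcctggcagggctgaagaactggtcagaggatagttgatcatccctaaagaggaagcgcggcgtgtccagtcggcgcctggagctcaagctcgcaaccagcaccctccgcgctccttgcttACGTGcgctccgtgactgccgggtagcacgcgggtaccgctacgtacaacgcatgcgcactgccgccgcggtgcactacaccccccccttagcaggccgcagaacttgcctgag
Aldoa chr7:126799255-126799504 -: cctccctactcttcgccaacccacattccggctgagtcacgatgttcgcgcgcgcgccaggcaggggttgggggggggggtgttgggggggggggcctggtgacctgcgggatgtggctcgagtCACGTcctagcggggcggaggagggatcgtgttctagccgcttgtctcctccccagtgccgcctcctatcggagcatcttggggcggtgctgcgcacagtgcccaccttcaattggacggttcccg
RefSeq windows were matched for 32 of the 34 genes; Idh3a and Slc2a3 had no entry. On either strand, ACGTG was found upstream of 12 of 32 (37.5%), against 18.5% of 27025 genes, and CACGTG upstream of 4 (12.5%), namely Ldha, Ogdh, Pfkm and Slc16a1, against 6.86%. GGGCGG, the box bound by Sp1-type factors, was found upstream of 25 of 32 (78.1%) against 35.4% of genes, and TATAAA upstream of 0 against 14.3%. Of single windows, of which the 32 genes had 51, GGGCGG was in 29 (56.9%) against 32.7% of all 32851 windows, ACGTG in 19 (37.3%) against 16.6%, CACGTG in 6 (11.8%) against 6.02% and TATAAA in 0 against 12.4%. These matches describe letters in a window. No binding was measured here.

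After removal of cells with under 500 genes or over 10% mitochondrial UMIs, there remained 810 cells in ALP, 1829 in ILCpro_WT and 716 in ILCpro_KO, with totals of 4115605, 6094683 and 4384061 UMIs and a median of 4544.5, 2897 and 5309 UMIs per cell. ALP and ILCpro_WT shared 4 barcodes, ILCpro_KO and ILCpro_WT shared 1, and ALP and ILCpro_KO shared 0. Tcf7 stood at 1.46, 362 and 57.3 CPM (UMIs scaled to the total of their library) in ALP, ILCpro_WT and ILCpro_KO; which exons the null allele lacks is not stated, so 3′ tags do not check the genotype. The labelled cell types carried their markers: 6 genes of ALP summed to 2035 CPM in ALP against 171 in ILCpro_WT and 194 in ILCpro_KO, and 7 genes of ILC progenitors to 75.3, 2410.0 and 1204 CPM. Cells with UMIs of other lineages (granule, haemoglobin, basophil, CD3, CD79 or class II genes at 0.2% of UMIs or more) made up 4.94% of ALP, 5.96% of ILCpro_WT and 31.7% of ILCpro_KO. ILCpro_KO thus stands apart in its cells, and ratios that involve it are given below for all kept cells and, for the genes and sums the results turn on, also without these cells. With 1 library per group no difference here has a replicate check. Intervals in parentheses are exact at 95% and cover counting error only. In summed cells, fewer cells of a type and less RNA per cell cannot be told apart.

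The 34 genes together took 0.410% of UMIs in ALP, 0.375% in ILCpro_WT and 0.504% in ILCpro_KO. The libraries count 1 tag near the 3′ end of a transcript and are not scaled by length, so levels are compared between libraries and not between genes. Both glucose transporters were near the limit of detection in each library: Slc2a1 (GLUT1) stood at 8.02 CPM in ALP, 6.73 CPM in ILCpro_WT and 6.39 CPM in ILCpro_KO, and Slc2a3 (GLUT3) at 7.53 CPM in ALP, 6.23 CPM in ILCpro_WT and 8.44 CPM in ILCpro_KO. The intervals of the 3 libraries overlapped for both.

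Among the genes of upper glycolysis, the hexokinases that trap glucose in the cell went opposite ways. Hk1 stood at 37.9 (32.2 to 44.3), 26.7 (22.8 to 31.2) and 24.4 (20 to 29.5) CPM in ALP, ILCpro_WT and ILCpro_KO. Hk2, the inducible isoenzyme, stood at 30.6 (25.5 to 36.5), 47.4 (42.1 to 53.2) and 50.9 (44.4 to 58.0) CPM in ALP, ILCpro_WT and ILCpro_KO. ALP was thus highest for Hk1 and lowest for Hk2. Gpi1, the isomerase of the next step, stood at 294 CPM in ALP, 236 CPM in ILCpro_WT and 317 CPM in ILCpro_KO. The phosphofructokinase subunits, which set the committed step, differed in order: Pfkl stood at 51.3 CPM in ALP, 38.2 CPM in ILCpro_WT and 50.9 CPM in ILCpro_KO, Pfkp at 8.50 CPM in ALP, 12.1 CPM in ILCpro_WT and 24.4 CPM in ILCpro_KO and Pfkm at 9.48 CPM in ALP, 7.06 CPM in ILCpro_WT and 4.11 CPM in ILCpro_KO. Pfkp was highest in ILCpro_KO and Pfkm in ALP. Without other-lineage cells ILCpro_KO was the highest library for 2 of the 8 upper genes, against 4 with all cells. Aldoa, the main aldolase of the set, which splits the sugar into trioses, stood at 125 (114 to 136), 256 (244 to 269) and 260.3 (245 to 276) CPM in ALP, ILCpro_WT and ILCpro_KO. Both ILC progenitor libraries were above ALP and their intervals overlapped. Aldoc had 3.16, 6.89 and 2.51 CPM.

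In lower glycolysis, ILCpro_KO was the highest library for 5 of 6 genes and ILCpro_WT the lowest for all 6 when all cells were used. The share of cycling cells differs between the libraries. In cells with 0 UMIs of Mki67 and Top2a, 3 of the 6 genes were higher and 3 lower in ILCpro_WT than in ALP. Without other-lineage cells ILCpro_KO was highest for 3 (Tpi1, Pgam1 and Eno1) and ILCpro_WT lowest for 5, all but Pkm. Tpi1, triose phosphate isomerase, stood at 249.5 CPM in ALP, 224 CPM in ILCpro_WT and 289.7 CPM in ILCpro_KO. Gapdh, which makes the first NADH of the pathway, stood at 619 (595 to 644), 459 (442 to 476) and 630.0 (607 to 654) CPM in ALP, ILCpro_WT and ILCpro_KO. Gapdh in ALP and ILCpro_KO could not be told apart by counting error, and ILCpro_WT was below both. Without other-lineage cells Gapdh stood at 623, 449 and 546 CPM in ALP, ILCpro_WT and ILCpro_KO, and the ratio of ILCpro_KO to ALP was 0.878 (0.823 to 0.935), below 1. Pgk1, the first ATP-forming step, was low throughout at 15.6 CPM in ALP, 6.73 CPM in ILCpro_WT and 13.2 CPM in ILCpro_KO. Pgam1, phosphoglycerate mutase, stood at 179 (166 to 192), 154 (145 to 165) and 311 (295 to 328) CPM in ALP, ILCpro_WT and ILCpro_KO. Its 3 intervals did not overlap. Eno1, enolase, stood at 105 (95.5 to 116), 97.0 (89.3 to 105) and 158 (147 to 171) CPM in ALP, ILCpro_WT and ILCpro_KO, with ILCpro_KO above the other two. Pkm, pyruvate kinase, stood at 347 CPM in ALP, 298 CPM in ILCpro_WT and 359 CPM in ILCpro_KO, and without other-lineage cells at 341, 295 and 285 CPM in ALP, ILCpro_WT and ILCpro_KO.

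Of the lactate genes, Ldha, the subunit that favours reduction of pyruvate, stood at 382 (363 to 401), 424 (407 to 440.3) and 581 (558 to 604) CPM in ALP, ILCpro_WT and ILCpro_KO. Ldhb, the subunit that favours the reverse reaction, stood at 41.5 (35.6 to 48.3), 35.4 (30.9 to 40.5) and 22.6 (18.4 to 27.5) CPM in ALP, ILCpro_WT and ILCpro_KO. The order of the libraries for Ldhb was the reverse of that for Ldha, with ILCpro_KO lowest and no overlap of its interval with the others. The lactate carriers were low: Slc16a1 (MCT1) stood at 13.6 CPM in ALP, 8.04 CPM in ILCpro_WT and 16.9 CPM in ILCpro_KO and Slc16a3 (MCT4) at 2.19 CPM in ALP, 4.92 CPM in ILCpro_WT and 4.11 CPM in ILCpro_KO.

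All 4 pentose phosphate genes were highest in ILCpro_KO when all cells were used, and 3 of 4 without other-lineage cells, where G6pdx stood at 15.0, 18.4 and 18.2 CPM in ALP, ILCpro_WT and ILCpro_KO. G6pdx, which commits sugar to the pathway, stood at 15.3 CPM in ALP, 18.5 CPM in ILCpro_WT and 25.5 CPM in ILCpro_KO, and Pgd, its second NADPH-forming enzyme, at 47.9 (41.4 to 55.0), 51.5 (46.0 to 57.5) and 87.6 (79.0 to 96.8) CPM in ALP, ILCpro_WT and ILCpro_KO. Taldo1 (transaldolase) and Tkt (transketolase) return the sugars to glycolysis. Taldo1 stood at 178 (165 to 191), 219.7 (208 to 232) and 355 (338 to 373) CPM in ALP, ILCpro_WT and ILCpro_KO, an order in which no intervals overlap, and Tkt at 346 CPM in ALP, 269 CPM in ILCpro_WT and 380.2 CPM in ILCpro_KO. At the entry to mitochondria, Pdha1, the catalytic subunit of pyruvate dehydrogenase, stood at 67.3 CPM in ALP, 61.7 CPM in ILCpro_WT and 69.6 CPM in ILCpro_KO. Pdk1, the kinase that inhibits it, stood at 61.7 (54.4 to 69.8), 37.6 (32.9 to 42.8) and 40.1 (34.4 to 46.5) CPM in ALP, ILCpro_WT and ILCpro_KO. ALP was above both ILC progenitor libraries for Pdk1.

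In the TCA cycle, Cs, citrate synthase, stood at 37.4 (31.7 to 43.8), 30.7 (26.4 to 35.4) and 57.3 (50.4 to 64.8) CPM in ALP, ILCpro_WT and ILCpro_KO, and Idh3a, a subunit of the NAD-dependent isocitrate dehydrogenase, at 49.8 CPM in ALP, 49.1 CPM in ILCpro_WT and 77.3 CPM in ILCpro_KO. ILCpro_KO was highest for both. The NADP-dependent isocitrate dehydrogenases of the cytosol and of mitochondria stood at 11.4 CPM in ALP, 7.38 CPM in ILCpro_WT and 19.6 CPM in ILCpro_KO (Idh1) and 201 CPM in ALP, 173 CPM in ILCpro_WT and 232 CPM in ILCpro_KO (Idh2). Ogdh, of the oxoglutarate dehydrogenase complex, stood at 51.8 CPM in ALP, 54.0 CPM in ILCpro_WT and 54.1 CPM in ILCpro_KO, with overlapping intervals. Fh1, fumarase, stood at 104 (93.9 to 114), 61.9 (55.8 to 68.4) and 95.6 (86.6 to 105) CPM in ALP, ILCpro_WT and ILCpro_KO. ILCpro_WT was lowest for Fh1 and the other libraries overlapped. The malate dehydrogenases of the cytosol (Mdh1) and of mitochondria (Mdh2) stood at 199 CPM in ALP, 167 CPM in ILCpro_WT and 177 CPM in ILCpro_KO, and at 201 CPM in ALP, 194 CPM in ILCpro_WT and 237 CPM in ILCpro_KO.

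**Figure D1:**
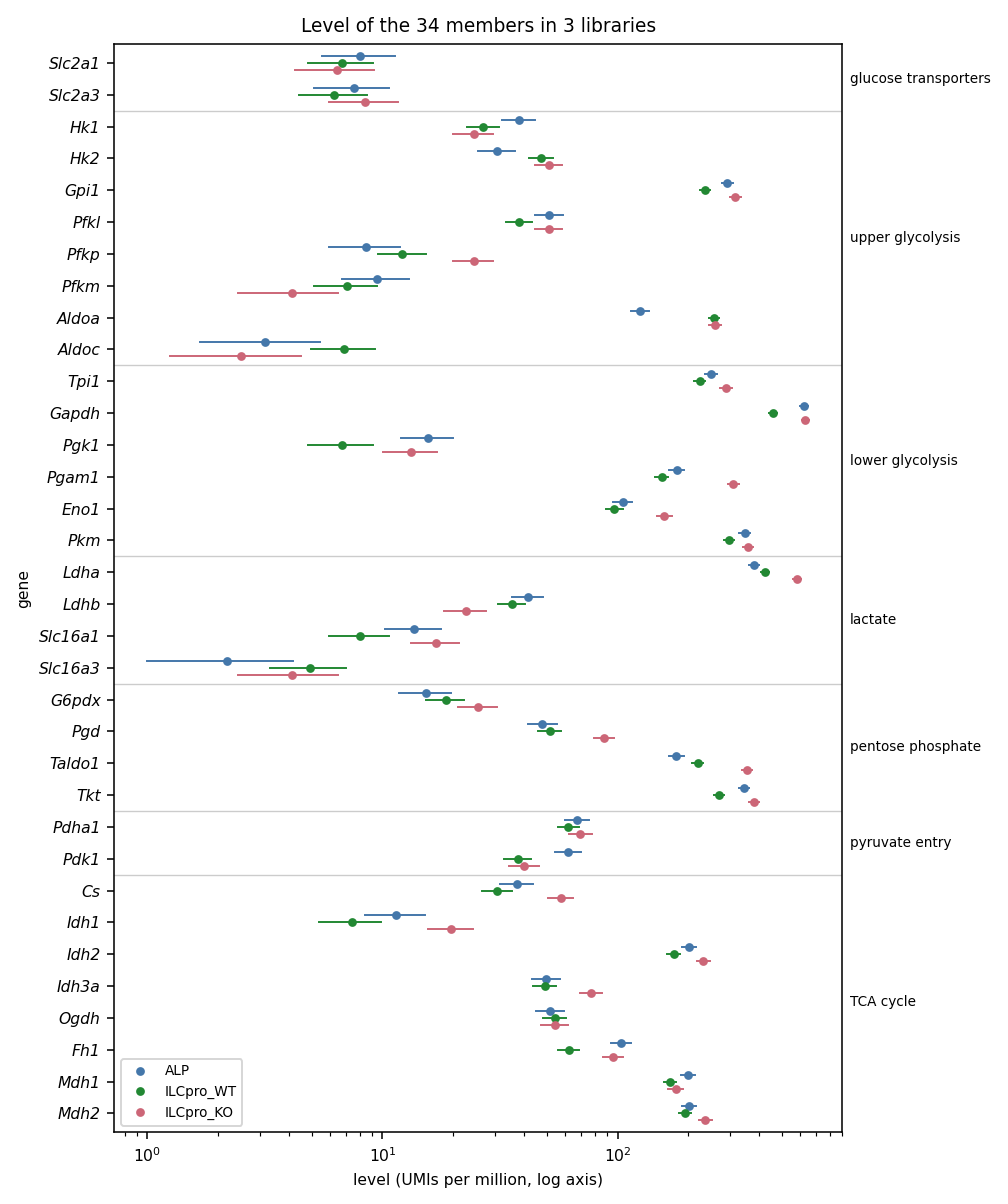
Level of each of the 34 genes in CPM (log axis) in the libraries ALP, ILCpro_WT and ILCpro_KO, 1 library each, grouped by role; points are sums over kept cells and bars exact 95% Poisson intervals for counting error. Pgam1 reads 179, 154 and 311 CPM in that order, while Ldhb is lowest in ILCpro_KO at 22.6 CPM.

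The share of a cell's UMIs from the 34 genes spread widely within each library. In non-cycling cells (0 UMIs of Mki67 and Top2a together) the median was 0.357% in ALP, with quartiles of 0.282 and 0.451%. It was 0.328% (0.248 and 0.426%) in ILCpro_WT and 0.408% (0.329 and 0.512%) in ILCpro_KO. In cycling cells (at least 2 such UMIs) the medians were 0.398, 0.395 and 0.526%. The median cycling cell was above the median non-cycling cell in each library, and the quartile ranges overlapped. Within ILCpro_KO, the 128 cells with granule genes gave 6335 CPM from the 34 genes, the 21 with CD3 genes 5478 CPM and the 63 with class II genes 4088 CPM. The 489 ILCpro_KO cells with none of these gave 4647 CPM, against 3702 CPM in 1720 such cells of ILCpro_WT and 4076 CPM in 770 of ALP.

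**Figure D2:**
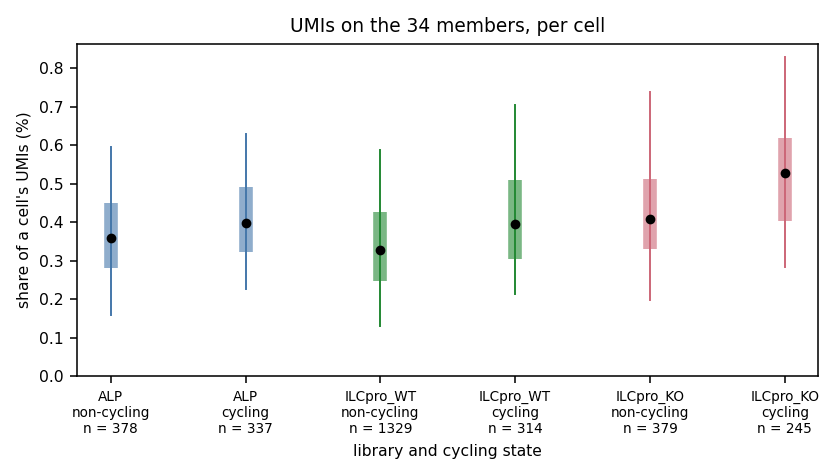
Share of a cell's UMIs that came from the 34 genes (percent), by library and cycling state; points are medians over cells, boxes span the quartiles, and thin lines run from the 5th to the 95th percentile of cells. Cycling ILCpro_KO cells have the highest median (0.526%) and non-cycling ILCpro_WT cells the lowest (0.328%).

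Cycling and non-cycling cells were compared within each library, which asks how the pathway moves with division in cells of 1 sort. Lower glycolysis and Ldha stood higher in cycling cells and Aldoa and Pdk1 lower, in each of the 3 libraries. The sum of the 6 lower glycolytic genes was 1.31 (1.24 to 1.39) times the non-cycling level in ALP, 1.42 (1.35 to 1.49) times in ILCpro_WT and 1.58 (1.5 to 1.66) times in ILCpro_KO. The sum of the 8 upper genes was 0.797 (0.729 to 0.871), 0.840 (0.778 to 0.906) and 0.903 (0.838 to 0.974) times, and that of Pdha1 and Pdk1 0.680, 0.848 and 0.737 times. The TCA genes summed to 1.08 (1.01 to 1.17), 1.16 (1.08 to 1.24) and 1.10 (1.03 to 1.18) times. Of the measured upper genes 5 of 8 were lower in cycling cells of ALP, 7 of 8 in ILCpro_WT and 4 of 6 in ILCpro_KO. Aldoa took a large part of the lower sum, which without it was 0.912 (0.823 to 1.01), 0.911 (0.825 to 1.004) and 0.997 (0.907 to 1.10) times.

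These ratios depend on how cycling was called. With cells first thinned to 1000 UMIs and called cycling at 1 or more UMIs of Mki67 and Top2a, 240 cells of ALP, 267 of ILCpro_WT and 149 of ILCpro_KO were cycling and 570, 1558 and 567 were not. The latter then included 119, 101 and 112 cells that had 2 or more such UMIs before thinning. By this call the lower glycolytic sum was 1.07 (1.02 to 1.13), 1.35 (1.28 to 1.42) and 1.14 (1.08 to 1.19) times, the lactate sum 1.004 (0.912 to 1.10), 1.26 (1.15 to 1.37) and 1.01 (0.930 to 1.10) times, and the upper sum 0.842 (0.772 to 0.917), 0.890 (0.819 to 0.967) and 0.792 (0.728 to 0.860) times. The sum of the 34 genes was 0.993 (0.963 to 1.02), 1.16 (1.12 to 1.19) and 1.02 (0.987 to 1.05) times, with the intervals of ALP and ILCpro_KO spanning 1.

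Gapdh stood at 668 against 524 CPM in cycling against non-cycling cells of ALP, 612 against 384 CPM in ILCpro_WT and 763 against 464 CPM in ILCpro_KO. Pgam1 stood at 209 against 130.3 CPM, 200.1 against 140.1 CPM and 390.3 against 211 CPM in the same order. For both genes every library had the higher level in its cycling cells, with ratios of 1.27, 1.59 and 1.64 for Gapdh and 1.60, 1.43 and 1.85 for Pgam1. Ldha stood at 421 against 319 CPM, 561 against 354 CPM and 674 against 482 CPM, ratios of 1.32 (1.18 to 1.48), 1.59 (1.46 to 1.73) and 1.40 (1.28 to 1.53). With cycling called on thinned cells the Ldha ratios were 1.04 (0.941 to 1.15), 1.32 (1.21 to 1.45) and 1.04 (0.949 to 1.13), and only that of ILCpro_WT had an interval above 1. Tpi1 had ratios of 1.49, 1.51 and 1.66, and Pkm of 1.20, 1.33 and 1.44. Eno1 did not share the pattern, with ratios of 1.13, 0.761 and 1.12.

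Aldoa went the other way, at 90.4 against 179 CPM in cycling against non-cycling cells of ALP, 210.5 against 283 CPM in ILCpro_WT and 226 against 299 CPM in ILCpro_KO. Its ratios were 0.504 (0.417 to 0.608), 0.745 (0.658 to 0.841) and 0.757 (0.667 to 0.859), with the lowest ratio in ALP. Pdk1 stood at 49.4 against 81.1 CPM, 24.3 against 42.1 CPM and 31.2 against 49.1 CPM. Ldhb, in contrast to Ldha, stood at 35.1 against 47.6 CPM in ALP, 13.9 against 44.0 CPM in ILCpro_WT and 26.1 against 22.1 CPM in ILCpro_KO. The ILCpro_WT ratio of Ldhb was 0.317 (0.196 to 0.492), with ratios of 0.736 (0.525 to 1.04) in ALP and 1.18 (0.763 to 1.83) in ILCpro_KO. Taldo1 had a ratio of 0.797 in ALP but 1.20 and 1.12 in the ILC progenitor libraries.

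Counts were read on the log2 scale with 10 CPM added to each level, over genes with at least 5 CPM in either group, while the ratios given for single genes are plain ratios of CPM. The added 10 CPM draws low genes towards equality, so a low gene can have a ratio past 2 and not be counted. In ALP, 1 of 33 measured members (Pgam1) stood at least 1.5-fold higher in cycling cells, against 6.17% of all measured genes, and 2 (Aldoa and Pdk1) lower, against 4.83%. At 2-fold, 0 stood higher and 0 lower, against 2.65% and 0.593% of all measured genes. In ILCpro_WT, 2 of 34 (Gapdh and Ldha) stood higher against 8.87%, and 4 (Slc2a1, Aldoc, Ldhb and Pdk1) lower against 6.76%. At 2-fold in that library, 0 stood higher and 1 lower, against 3.46% and 1.41% of all measured genes. In ILCpro_KO, 5 of 31 (Pfkp, Tpi1, Gapdh, Pgam1 and G6pdx) stood higher against 6.5%, and 0 lower against 6.49%. In ILCpro_KO at 2-fold, 0 stood higher and 0 lower, against 2.63% and 1.19% of all measured genes. The shares in ALP and ILCpro_WT are near the background. With ribosomal and mitochondrial genes left out of the total, the 1.5-fold counts of higher and lower members were 1 and 4 in ALP, 1 and 4 in ILCpro_WT and 5 and 2 in ILCpro_KO. Of all measured genes 6.59, 8.22 and 6.75% then stood higher and 9.23, 12.0 and 11.5% lower. TMM gave 2 and 1 in ALP, against 7.25 and 3.63% of genes. With cycling called on cells thinned to 1000 UMIs, 0, 1 and 0 members stood higher in the 3 libraries, given here without the share over all genes. The median log2 ratio of the members was 0.03, 0.06 and 0.16 in ALP, ILCpro_WT and ILCpro_KO, beside -0.03, -0.02 and -0.04 over all measured genes. With cycling called on thinned cells the members' median turned negative in ALP and ILCpro_KO.

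Of 31 members measured in all 3 libraries, 12 (38.7%) were higher in cycling cells of each, against 26.5% of 8768 genes, and 4 (12.9%, namely Gpi1, Pfkl, Aldoa and Pdk1) were lower in each, against 29.2%. The 12 were Pfkp, Tpi1, Gapdh, Pgk1, Pgam1, Pkm, Ldha, Tkt, Cs, Idh3a, Fh1 and Mdh2. Of these, 7 (Tpi1, Gapdh, Pgam1, Pkm, Ldha, Tkt and Mdh2) kept their sign in each library under all 13 alternatives of processing, as did 1 of the 4 lower genes, Aldoa. Some of these alternatives, namely adding 1 CPM instead of 10 CPM and changing the minimum level, cannot change a sign and are no check of it. This is a statement of sign alone, since several ratios came close to 1 with cycling called on thinned cells. Pkm was then at 1.01, 1.39 and 1.04, Tkt at 1.09, 1.19 and 1.03 and Mdh2 at 1.13, 1.15 and 1.02 in ALP, ILCpro_WT and ILCpro_KO. Tpi1 was at 1.06, 1.23 and 1.24, Gapdh at 1.10, 1.43 and 1.16 and Pgam1 at 1.21, 1.49 and 1.19. Aldoa stayed below 1 with its intervals, at 0.634 (0.521 to 0.769), 0.802 (0.699 to 0.916) and 0.624 (0.536 to 0.725). Cycling cells were deeper, with a median of 6561, 4931.5 and 8151 UMIs against 3482.5, 2544 and 4081. Other-lineage cells made up 3.86, 12.7 and 36.7% of cycling and 5.82, 4.36 and 28.0% of non-cycling cells. In ILCpro_WT the 7 ILC progenitor genes summed to 1104 CPM in cycling and 3039.5 CPM in non-cycling cells. Without other-lineage cells the ratio of Gapdh was 1.27, 1.56 and 1.45, of Ldha 1.29, 1.61 and 1.40, and of Ldhb in ILCpro_WT 0.300.

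**Figure D3:**
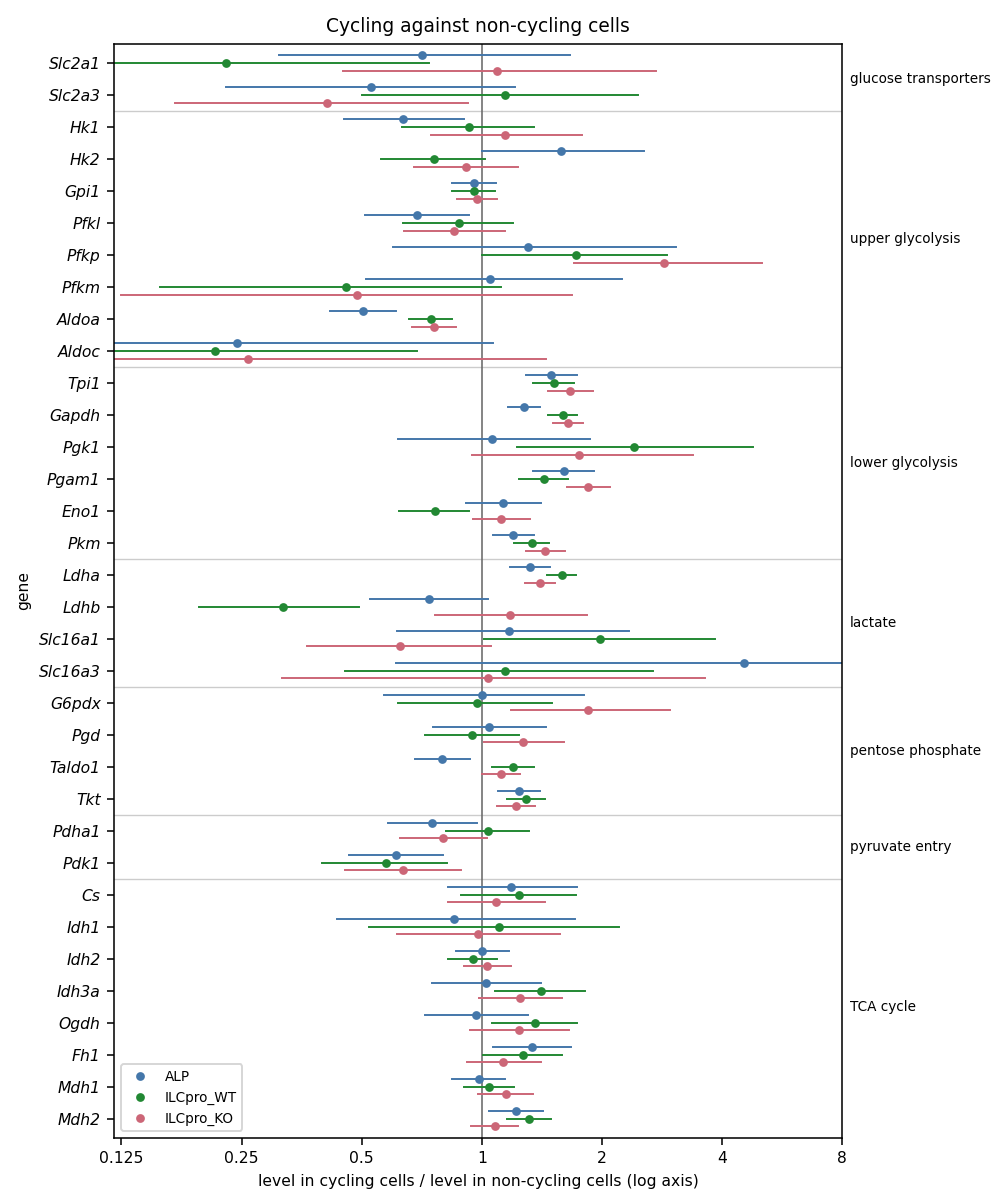
Ratio of the level in cycling to that in non-cycling cells (log axis) for each of the 34 genes in the 3 libraries, 1 library per colour; bars are exact conditional binomial 95% intervals for counting error, cut off at the axis limits, and the vertical line marks equal levels. Gapdh, Pgam1 and Ldha lie above 1 in all 3 libraries and Aldoa below 1, while Ldhb lies at 0.317 in ILCpro_WT.

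ILCpro_KO against ILCpro_WT asks how the pathway differs without TCF-1, the protein of Tcf7, among cells of 1 gate. The 34 genes summed to 1.34 (1.32 to 1.37) times the ILCpro_WT level in ILCpro_KO. The pentose phosphate genes summed to 1.52 (1.45 to 1.59) times and lower glycolysis to 1.42 (1.38 to 1.47) times. The lactate genes summed to 1.32 (1.25 to 1.39) times and the TCA genes to 1.29 (1.23 to 1.34) times. Upper glycolysis, at 1.16 (1.11 to 1.22) times, and pyruvate entry, at 1.11 (0.978 to 1.25) times, lay closer to 1. Without other-lineage cells the 34 genes summed to 1.26 (1.23 to 1.28) times, pentose phosphate to 1.40 (1.33 to 1.48), lower glycolysis to 1.24 (1.19 to 1.29), lactate to 1.30 (1.22 to 1.38), TCA to 1.32 (1.26 to 1.38), upper glycolysis to 1.07 (1.01 to 1.13) and pyruvate entry to 1.10 (0.959 to 1.27) times. Of 33 measured members 28 were higher, where 62.3% of all measured genes were. At least 1.5-fold higher were 7 or 21.2% (Pfkp, Pgam1, Eno1, Pgd, Taldo1, Cs and Idh1), against 6.44% of all measured genes, and 0 were lower, against 2.64%. At 2-fold, 0 stood higher and 0 lower, against 1.48% and 0.869% of all measured genes. The members' median log2 ratio was 0.36, beside 0.09 over all measured genes.

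Several of these ratios changed when the other-lineage cells were left out. The 12 neutrophil and monocyte genes summed to 4755 CPM in ILCpro_KO and 495 CPM in ILCpro_WT, all 12 higher in ILCpro_KO, with Ngp and Camp at 0 in ILCpro_WT. Pgam1 stood 2.02 (1.85 to 2.19) times higher with all cells and 1.72 (1.55 to 1.90) times without other-lineage cells; in cells of ILCpro_KO with granule genes it was at 524 CPM, and in cells with no other-lineage genes at 249 CPM. Idh1 went from 2.66 (1.83 to 3.90) to 1.85 (1.12 to 3.04). Cs went from 1.87 (1.54 to 2.27) to 1.74 (1.39 to 2.18), and Taldo1 from 1.62 (1.5 to 1.74) to 1.5 (1.38 to 1.64). These 4 ratios stayed above 1 with their intervals. Eno1 went from 1.63 to 1.28 (1.12 to 1.46), Pgd from 1.70 to 1.25 (1.03 to 1.5) and Pfkp from 2.01 to 1.51 (1.02 to 2.21). Their intervals also stayed above 1, with lower limits close to it for Pgd and Pfkp. Pkm crossed equality, from 1.20 to 0.967 (0.888 to 1.05), as did G6pdx, from 1.38 to 0.989 (0.697 to 1.39). Without these cells the counts at 1.5-fold were 4 higher and 1 lower, given here without the share over all genes.

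Ldhb stood against the trend of the set. Its ratio of ILCpro_KO to ILCpro_WT was 0.637 (0.497 to 0.812) with all cells and 0.453 (0.325 to 0.620) without other-lineage cells, where it stood at 16.8 CPM against 37.1 CPM. The 21 ILCpro_KO cells with CD3 genes held it at 163 CPM. Ldha stood at a ratio of 1.37 (1.30 to 1.45), or 1.37 (1.29 to 1.46) without these cells. The subunits of lactate dehydrogenase thus differed in opposite directions between the genotypes over all cells. Among cycling cells as called here Ldhb was higher in ILCpro_KO, but with cycling called on thinned cells its log2 ratio was -0.205. Among non-cycling cells without other-lineage genes, 619 cells of ILCpro_WT but 29 of ILCpro_KO carried ILC genes by the rule given below. In ILCpro_WT Ldhb stood at 68.3 CPM in these and at 19.4 CPM in the 414 cells without them. The part of this in the genotype ratios was not tested. Pfkm and Aldoc, at 4.11 and 2.51 CPM in ILCpro_KO, had ratios of 0.582 (0.316 to 1.03) and 0.364 (0.169 to 0.720). Among the other members, Idh3a was at 1.76 (1.48 to 2.10) and Fh1 at 1.62 (1.38 to 1.91) without other-lineage cells.

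In non-cycling cells alone, 4 of 33 measured members stood at least 1.5-fold higher in ILCpro_KO (Slc16a1, Taldo1, Cs and Idh1), against 7.79% of all measured genes, and 1 lower (Ldhb), against 3.0%. At 2-fold, 0 stood higher and 0 lower, against 1.92% and 0.874% of all measured genes. In cycling cells 7 of 32 stood higher (Pfkp, Pgam1, Eno1, Ldhb, Pgd, Cs and Idh1), against 6.07%, and 0 lower, against 2.57%. Among cycling cells at 2-fold, 0 stood higher and 0 lower, against 1.07% and 0.588% of all measured genes. Of 31 members measured in both states, 23 (74.2%) were higher in ILCpro_KO in both, against 44.6% of 8962 genes. That count holds for all kept cells without TMM. Without other-lineage cells Hk2 and Pfkp turned negative in non-cycling cells, Aldoa in cycling cells and Pkm in both, while Ogdh became positive in both. With TMM the log2 ratios of Tpi1, Hk2, Aldoa and Pkm turned negative in non-cycling cells. The median log2 ratio was 0.34 in non-cycling and 0.34 in cycling cells, beside 0.10 and 0.07 over all measured genes. Cs stood 1.89 and 1.65 times higher in non-cycling and cycling cells, and Idh1 2.93 and 2.60 times. Without other-lineage cells Cs stood at 1.74 (1.23 to 2.43) and 1.53 (1.06 to 2.21) times, and Idh1 at 1.85 (0.904 to 3.68) and 2.52 (0.980 to 7.24) times, with both Idh1 intervals spanning 1. Slc16a1 stood at 20.9 against 5.83 CPM in non-cycling cells, 3.60 (2.05 to 6.43) times, and at 1.13 (0.609 to 2.14) times in cycling cells; without other-lineage cells these were 3.11 (1.63 to 5.94) and 1.10 (0.541 to 2.25). Without other-lineage cells 3 members stood 1.5-fold higher among cycling cells, a count given without the share over all genes. Ldhb there went from 1.87 to 1.27 (0.666 to 2.43).

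The scale matters for this comparison. Ribosomal protein genes took a mean of 33.5% of a cell's UMIs in ILCpro_KO and 38.3% in ILCpro_WT. With edgeR's TMM scaling the median of all measured genes moved by -0.11 on the log2 scale, from 0.09 to -0.02, and that of the members to 0.22. The gap between the members and all genes was 0.27 without and 0.24 with TMM. The calls at 1.5-fold became 3 higher and 1 lower, against 4.26 and 3.82% of genes. With ribosomal and mitochondrial genes left out of the total they were 6 higher and 2 lower, against 6.35 and 4.52%. Hk2, Aldoa, Pdk1, Ogdh and Mdh1 changed the sign of their small log2 ratios between these scalings, so no direction is given for them. In non-cycling cells TMM moved the median of all genes by -0.12 and gave 3 higher and 1 lower, against 5.12 and 4.41% of genes. Leaving out ribosomal and mitochondrial genes gave 3 and 2, against 8.11 and 5.27%.

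**Figure D4:**
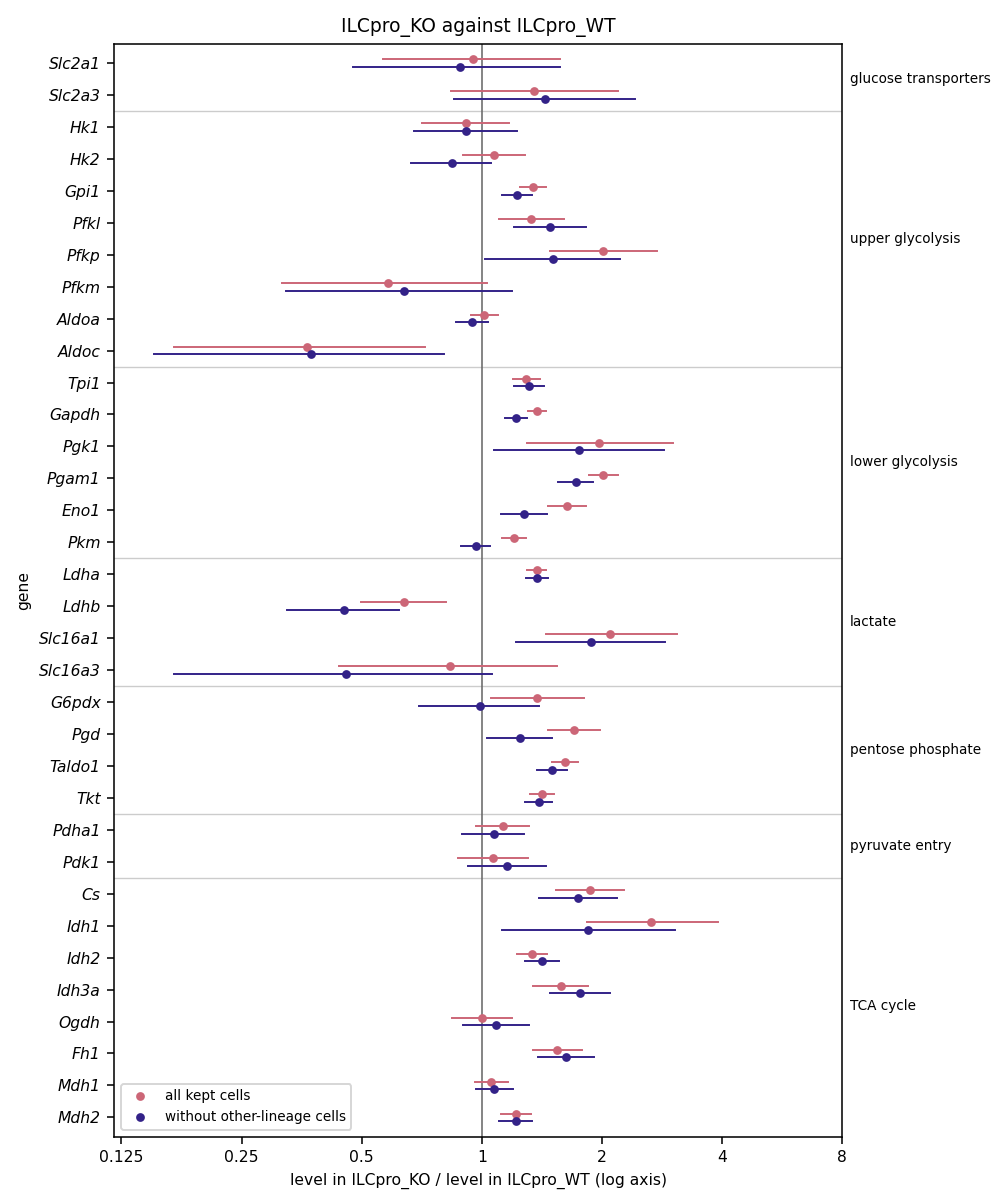
Ratio of the level in ILCpro_KO to that in ILCpro_WT (log axis) for each of the 34 genes, with all kept cells and without cells carrying other-lineage genes, 1 library per genotype; bars are exact 95% intervals for counting error, cut off at the axis limits. Idh1, Pgam1 and Cs lie above 1 in both sets of cells and Ldhb below 1 (0.637 and 0.453), while Pkm moves from 1.20 to 0.967.

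Both ILC progenitor libraries were also set against ALP, which they share as reference, so the 2 comparisons are not independent. In ILCpro_WT the 34 genes summed to 0.915 (0.897 to 0.933) times the ALP level and in ILCpro_KO to 1.23 (1.21 to 1.25) times. Aldoa was the 1 member at least 1.5-fold higher in ILCpro_WT, at 2.06 (1.86 to 2.28) times, and stood at 2.09 (1.88 to 2.32) times in ILCpro_KO. Hk2 stood at 1.55 (1.25 to 1.92) and 1.66 (1.33 to 2.08) times, and Hk1 at 0.706 (0.563 to 0.885) and 0.644 (0.499 to 0.829) times. Without other-lineage cells Hk2 in ILCpro_KO was at 1.30 (0.994 to 1.71) times, an interval that includes 1, and Hk1 at 0.633 (0.469 to 0.849) and Aldoa at 1.95 (1.73 to 2.19) times. Pdk1 stood at 0.609 (0.507 to 0.731) and 0.650 (0.534 to 0.791) times. Taldo1 stood at 1.23 (1.13 to 1.35) and 2.00 (1.83 to 2.18) times, Pgam1 at 0.863 (0.783 to 0.952) and 1.74 (1.59 to 1.91), and Gapdh at 0.741 (0.702 to 0.782) and 1.02 (0.964 to 1.07).

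Of 33 measured members, 1 stood at least 1.5-fold higher in ILCpro_WT than in ALP, against 5.27% of all measured genes, and 3 (Pgk1, Pdk1 and Fh1) lower, against 9.61%. At 2-fold, 0 stood higher and 0 lower, against 2.11% and 3.06% of all measured genes. The median log2 ratio was -0.18, beside -0.07 over all measured genes. These shares are close to the background. With TMM the counts were 2 higher and 0 lower, against 6.66 and 7.64% of genes. With ribosomal and mitochondrial genes left out of the total they were 2 higher and 2 lower, against 7.22 and 10.2%. In ILCpro_KO, 6 of 32 stood higher than in ALP (Pfkp, Aldoa, Pgam1, Ldha, Pgd and Taldo1), against 5.45%, and 1 lower (Ldhb, at 0.543 times), against 4.67%. For ILCpro_KO at 2-fold, 1 stood higher and 0 lower, against 2.01% and 1.43% of all measured genes. Its median log2 ratio was 0.16, beside 0.01. Without ribosomal and mitochondrial genes in the total the counts were 6 and 3, against 6.38 and 6.64% of genes. Without other-lineage cells, Pgam1 stood at 1.5, Taldo1 at 1.81, Pgd at 1.43, Ldha at 1.53, Idh1 at 1.24 and Pkm at 0.837 (0.766 to 0.913) times the ALP level.

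Because 41.6% of ALP cells but 17.2% of ILCpro_WT cells were cycling, the same comparison was made in non-cycling cells. There 2 of 33 members (Hk2 and Aldoa) stood at least 1.5-fold higher in ILCpro_WT, against 6.61% of all measured genes, and 3 (Hk1, Pgk1 and Pdk1) lower, against 11.4%. At 2-fold, 0 stood higher and 0 lower, against 2.57% and 3.97% of all measured genes. Hk2 stood at 49.5 CPM in ILCpro_WT against 20.1 CPM in ALP, 2.46 (1.64 to 3.84) times. Hk1 stood at 26.8 against 49.1 CPM, 0.544 (0.395 to 0.754) times. Both hexokinase ratios lay further from 1 than over all cells, a difference that was not tested. Aldoa stood at 1.58 (1.37 to 1.82) times, Pgk1 at 0.307 (0.157 to 0.595) times and Pdk1 at 0.519 (0.404 to 0.668) times. The lower glycolytic genes summed to 0.867 (0.820 to 0.918) times. Of these, Gapdh stood at 0.733 (0.670 to 0.803) and Pkm at 0.883 (0.787 to 0.992) times. Tpi1 at 1.01 (0.870 to 1.17), Pgam1 at 1.08 (0.905 to 1.28) and Eno1 at 1.09 (0.895 to 1.35) times had intervals that include 1. The median log2 ratio was -0.16, beside -0.09. TMM moved the median of all genes by 0.12 here and gave 2 higher and 2 lower, against 8.92 and 8.78% of genes. Leaving ribosomal and mitochondrial genes out of the total gave 3 and 3, against 9.26 and 13.1%.

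Within ILCpro_WT, non-cycling cells without other-lineage genes were divided by 8 ILC genes (Zbtb16, Rora, Gata3, Il18r1, Pdcd1, Icos, Il7r and Cxcr6): 619 cells had at least 2 of their UMIs after thinning to 1000 UMIs per cell, and 414 had 0. None of the 34 genes was used for the division. Ldhb, at 68.3 CPM (56.1 to 82.4) in positive and 19.4 CPM (12.5 to 28.6) in negative cells, was 3.52 (2.27 to 5.68) times higher in the positive cells. Eno1 stood at 138 CPM (120.2 to 157) and 73.6 CPM (59.6 to 90.0), 1.87 (1.47 to 2.41) times. Aldoc, a low gene with 23 and 3 UMIs, was at 6.20 (1.87 to 32.2) times. Pkm stood at 1.42 (1.23 to 1.65) times. Lower in positive cells were Cs, at 0.495 (0.303 to 0.795) times, Tkt at 0.626 (0.537 to 0.730), Idh2 at 0.669 (0.556 to 0.804) and Tpi1 at 0.691 (0.580 to 0.821) times. The pentose phosphate genes summed to 0.695 (0.626 to 0.770) times and the TCA genes to 0.802 (0.734 to 0.876) times the level of negative cells.

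Of 33 measured members, 3 (Ldhb, Eno1 and Aldoc) stood at least 1.5-fold higher in positive cells, against 9.76% of all measured genes, and 2 (Cs and Tkt) lower, against 5.85%. At 2-fold, 1 stood higher and 0 lower, against 2.82% and 1.21% of all measured genes. As counts these shares are near the background. With ribosomal and mitochondrial genes left out of the total the counts were 4 and 4, against 12.2 and 8.29% of genes. The median log2 ratio was -0.11, beside 0.04 over all genes, and 0.09 with cells thinned to 1000 UMIs, so the set as a whole has no direction here. The positive cells were shallower (median 2287 against 2883.5 UMIs), held 403 against 793 CPM of 14 S phase genes, all 14 lower, and 43.9 against 255 CPM of 12 neutrophil and monocyte genes; the part of these in the ratios was not tested. In ILCpro_KO 29 cells were positive by the same rule. They held 2 Ldhb UMIs (18.2 CPM), and the 189 negative cells 16 (19.0 CPM), levels whose counting intervals overlap. The negative cells of ILCpro_WT were close to this for Ldhb, at 19.4 CPM, while its positive cells stood at 68.3 CPM.

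**Figure D5:**
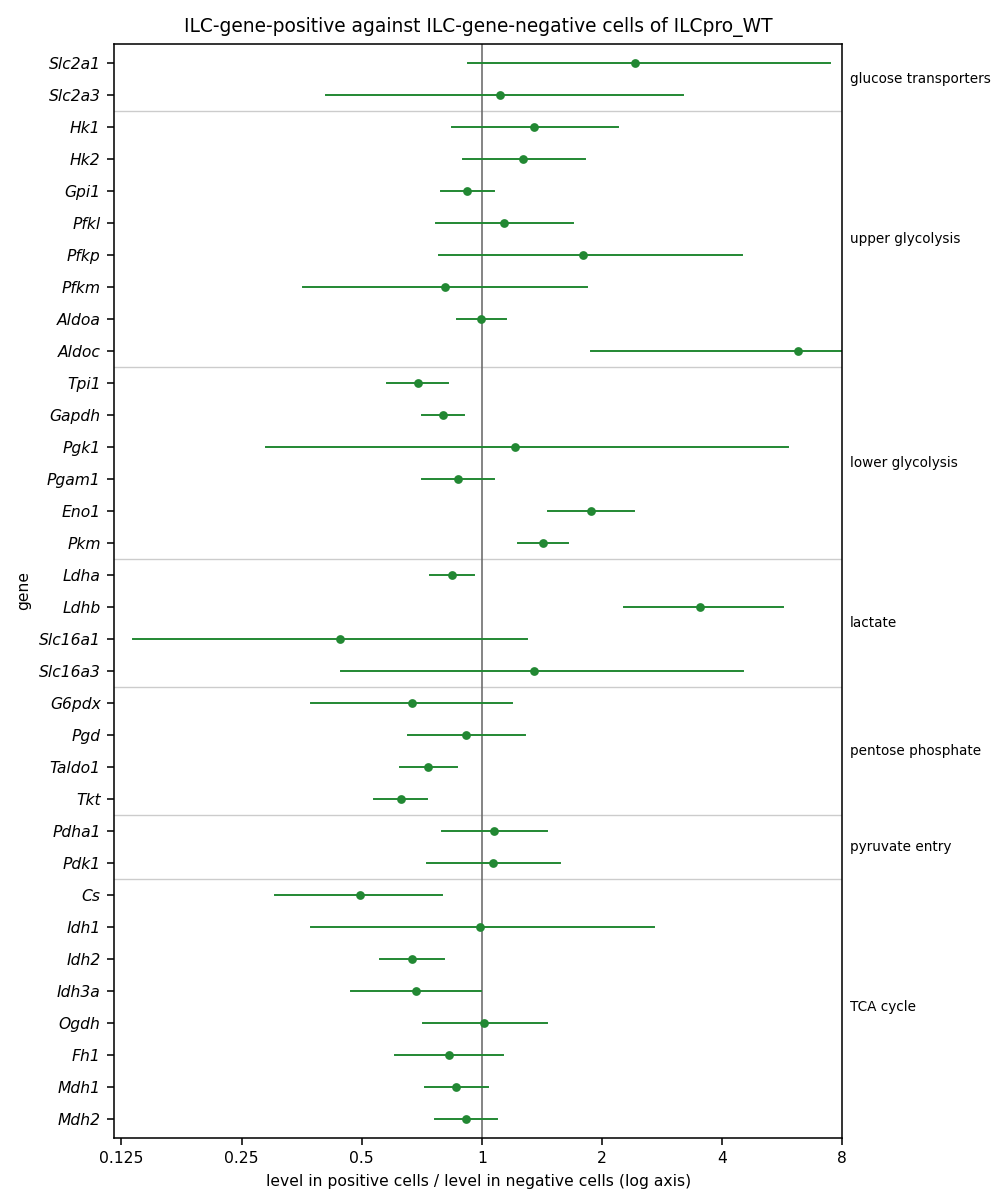
Ratio of the level in the 619 positive to that in the 414 negative non-cycling ILCpro_WT cells (log axis) for each of the 34 genes, from 1 library; bars are exact 95% intervals for counting error, cut off at the axis limits, and the vertical line marks equal levels. Ldhb lies at 3.52 and Eno1 at 1.87, while Cs (0.495) and Tkt (0.626) lie below 1.

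Other genes of central carbon metabolism were read from 9 further lists of 136 genes in all. Pgam2, the muscle isoenzyme of phosphoglycerate mutase, had 0 UMIs in ALP, 280 in ILCpro_WT (45.9 CPM) and 60 in ILCpro_KO (13.7 CPM). Against a floor of 3 UMIs in the ALP library (0.729 CPM), it was 63.0-fold higher in ILCpro_WT and 18.8-fold higher in ILCpro_KO. These ratios to the floor leave out counting error and are not lower bounds. Pgam2 stood at 24.3 CPM in cycling and 54.6 CPM in non-cycling cells of ILCpro_WT, the reverse of Pgam1, and at 79.6 and 26.4 CPM in ILC-gene-positive and negative cells. In ILCpro_KO it stood at 1.86 CPM in cycling and 30.5 CPM in non-cycling cells.

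Of 10 measured genes of serine and one-carbon metabolism, which draws on a lower glycolytic intermediate, 7, 8 and 8 stood at least 1.5-fold higher in cycling cells of ALP, ILCpro_WT and ILCpro_KO, and 0 lower. Of all measured genes 6.17%, 8.87% and 6.5% stood higher there and 4.83%, 6.76% and 6.49% lower. Tyms, thymidylate synthase, stood at 133 against 26.8 CPM in ALP, 153 against 20.7 in ILCpro_WT and 136 against 34.1 in ILCpro_KO. Phgdh, the first enzyme of serine synthesis, stood at 343 CPM in ALP, 150.0 in ILCpro_WT and 243 in ILCpro_KO. Of the hypoxia response list Ddit4, an inhibitor of mTORC1, stood at 15.8 CPM in ALP, 154 in ILCpro_WT and 117 in ILCpro_KO. It was lower in cycling than in non-cycling cells of each, at 7.18 against 31.3, 40.6 against 209 and 52.6 against 187 CPM. Among the regulators, Txnip, which restrains glucose uptake, stood at 63.4 against 103, 44.3 against 82.6 and 59.6 against 156 CPM in cycling and non-cycling cells. Myc stood at 82.9, 29.7 and 53.1 CPM in ALP, ILCpro_WT and ILCpro_KO and Mycn at 16.5, 112 and 94.9 CPM, so the 2 paralogues ran in opposite order between ALP and ILCpro_WT.

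Gsr, glutathione reductase, which uses NADPH, stood at 102 CPM in ILCpro_KO and 40.2 CPM in ILCpro_WT, and Gclc, which starts glutathione synthesis, at 21.2 and 47.9 CPM. Slc25a12, the aspartate and glutamate carrier of the malate shuttle, stood at 83.0 and 29.5 CPM. Of 14 further TCA cycle genes, all measured, 0 stood 1.5-fold higher or lower in ILCpro_KO than in ILCpro_WT, with a median log2 ratio of 0.21, against 6.44% and 2.64% of all measured genes and an all-gene median of 0.09.

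The 34 genes lie on 15 chromosomes of GRCm38. In the GENCODE vM21 annotation, Ldha on chromosome 7 (46841475 to 46855627, plus strand), Ldhb on chromosome 6 (142490249 to 142507957, minus strand), Pgam1 on chromosome 19 (41911923 to 41918660, plus strand), Aldoa on chromosome 7 (126795234 to 126800751, minus strand), Cs on chromosome 10 (128337734 to 128362479, plus strand) and Idh1 on chromosome 1 (65158616 to 65186500, minus strand) are the members described most fully above. Near-identical copies can divert 3′ tags: 8 members had an annotated transcript elsewhere that matched at least 200 of their last 500 bases at 95% identity or more. Gapdh had 91 such copies, Ldha 5, Eno1 4 and Aldoa 2, and Gpi1, Tpi1, Pkm and Ldhb 1 each. How reads with several matches were counted is not given in the sources used here, so levels of these 8 are uncertain to that extent. Exons of 11 members overlap a gene on the opposite strand (Aldoa with Fam57b, Pfkp with Pitrm1, G6pdx with Ikbkg), and Pfkm overlaps Gm26513 on its own strand. Strand handling is likewise not given.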

How the data were processed

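UMI counts per gene and cell barcode for 3 libraries (1 each of ALP, ILCpro_WT and ILCpro_KO) were used as deposited by the authors. Cell Ranger 2.0.1, STAR 2.5.1b, bcl2fastq 2.17 and mm10 are named in the submitters' processing notes, without roles; cell calling, strand and multi-mapping are not given in the sources used here. Kept cells had at least 500 genes and at most 10% mitochondrial UMIs. UMIs were summed per group and scaled to CPM. Ratios of CPM have exact conditional binomial 95% intervals and levels exact Poisson ones. A gene was measured with at least 5 CPM in either group and counted as higher or lower past 1.5-fold or 2-fold of log2((CPM + 10)/(CPM + 10)). With 1 library per group no test was made and the samples' spread is unknown. Cycling cells had at least 2 UMIs of Mki67 and Top2a, non-cycling cells 0; 95, 186 and 92 cells with 1 UMI were left out. Other-lineage cells had at least 0.2% and 3 UMIs of 1 of 6 marker sets; 15, 45 and 77 cells of ALP, ILCpro_WT and ILCpro_KO lay between 0.2 and 0.4%. Doublets scored with Scrublet in scanpy 1.11.5 were kept, and an alternative removed 5, 27 and 4 cells. edgeR 4.0.16 served for TMM scaling alone. Scripts used Python 3.11.15, numpy 2.4.6, scipy 1.17.1 and pandas 2.3.3, and were tested on simulated data. All 34 members are named; of each other list, at most the 3 genes with the largest ratio in a comparison and at least 20 CPM. Of these 12 marker lists and 9 further lists, those that bear on a result are given. Members and lists were chosen with earlier results of these data known. 13 alternatives were tried.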

Additional observations from a re-analysis of the deposited data

Results flagged for a closer look

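Ldhb moved opposite ways in the 2 cycling states as called here, though not with cycling called on thinned cells. Its ratio of ILCpro_KO to ILCpro_WT was 0.504 (0.343 to 0.723) in non-cycling cells, at 22.1 against 44.0 CPM, and 1.87 (1.13 to 3.18) in cycling cells, at 26.1 against 13.9 CPM. Without other-lineage cells the ratios were 0.395 (0.241 to 0.619) and 1.27 (0.666 to 2.43). With cycling called on thinned cells the log2 ratios of Ldhb, with 10 CPM added, were -0.512 in non-cycling and -0.205 in cycling cells. Taldo1 moved opposite ways between libraries as cycling was called here. Its ratio of cycling to non-cycling cells was 0.797 (0.680 to 0.934) in ALP, 1.20 (1.06 to 1.35) in ILCpro_WT and 1.12 (1.003 to 1.25) in ILCpro_KO. Without other-lineage cells it was 0.801 (0.681 to 0.944), 1.15 (1.01 to 1.31) and 1.04 (0.903 to 1.20). With cycling called on thinned cells the log2 ratio of Taldo1 was -0.232 in ALP, 0.215 in ILCpro_WT and -0.006 in ILCpro_KO. In each case the only library of every group went the stated way with all kept cells and cycling called before thinning. Intervals for counting error then lay on opposite sides of 1, and the difference between groups was not tested. No group has the libraries needed to look for a library far from the others.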

How the results depend on the processing

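No paired analysis was possible because each group has 1 library and the groups share replicate number 1 alone. Of 363 recomputed values, 296 kept within the limits set. The 120 medians of the members' log2 ratios did so in all 120 cases, staying between the medians of the members' lower and upper counting limits, and the 67 that moved were counts of members past 1.5-fold. These limits are wide, at -0.328 to 0.451 for cycling in ALP and -0.391 to 0.308 for the ILC-gene comparison. A median could change sign and stay within them, so this count does not show a stable direction. Medians that changed sign included the ILC-gene comparison (0.09 thinned), cycling in ILCpro_KO (-0.03 thinned) and in ALP (-0.02 without ribosomal and mitochondrial genes). The cycling medians of ALP and ILCpro_KO also turned negative with cycling called on thinned cells. Counts are given as members higher or lower. The share over all genes also shifts with the setting. Among the alternatives it is given above only for some counts with TMM or without ribosomal and mitochondrial genes. The counts below alone therefore give no result about the members. ILCpro_KO against ILCpro_WT had 7 higher and 0 lower. A pseudocount of 1 CPM gave 11 and 3. TMM gave 3 and 1, and no other-lineage cells 4 and 1. The lower count was 2 without ribosomal and mitochondrial genes and 1 with per-cell means, with thinning, and without other-lineage cells at 0.5%, a limit chosen after seeing the data. In non-cycling cells (4 and 1), a pseudocount of 1 gave 9 and 3, and calling cycling on thinned cells 10 and 0; the lower count was 2 without ribosomal genes and with per-cell means. In cycling cells (7 higher) leaving out other-lineage cells gave 3, or 4 at 0.5%. ILCpro_WT against ALP (1 and 3) gave 3 higher with a pseudocount of 1, 4 thinned, 2 without ribosomal genes, with per-cell means and with TMM, which also gave 0 lower. In non-cycling cells (2 and 3), thinning gave 4 and 6, a pseudocount of 1 gave 7 lower, and cycling from thinned cells 1 higher. ILCpro_KO against ALP (6 and 1) gave 11 and 4 with a pseudocount of 1, and 3 lower without ribosomal genes, 2 thinned and 2 without other-lineage cells at 0.5%. For cycling in ALP (1 and 2), a pseudocount of 1 gave 2 and 5, TMM 2 and 1, per-cell means 2 and 1, thinning 3 higher, and no ribosomal genes 4 lower; a minimum of 1000 genes, no other-lineage cells and cycling from thinned cells gave 0 higher. In ILCpro_WT (2 and 4), a pseudocount of 1 gave 6 higher, thinning 8, per-cell means 5 and 2 lower, 1000 genes 0 and 2, cycling from thinned cells 1 and 0, and no ribosomal genes or a cycling limit of 4 UMIs 1 higher; a minimum of 20 CPM gave 2 lower. In ILCpro_KO (5 and 0), no other-lineage cells gave 3 and 2, or 3 higher at 0.5%, cycling from thinned cells 0 and 1, a pseudocount of 1 gave 3 lower, and thinning or no ribosomal genes 2 lower. For the ILC-gene comparison (3 and 2), thinning gave 5 and 5, a pseudocount of 1 gave 5 higher and no ribosomal genes 4 lower. The cause of these shifts was not tested. Depth limits the members under about 10 CPM, where a library holds few UMIs.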
